A study of Mus musculus with 4 samples.

Results

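Genes of fatty acid oxidation and known targets of the receptor Ppara were followed through the cell types of the mouse kidney, in TrnE mutant and wild-type mice. There were 30 of them among the 32285 genes of the count tables, taken by symbol. All 30 were present there, and each had UMIs (unique molecular identifiers, which count captured transcripts) in all 4 libraries. The mutant group was 2 mice with a point mutation of TrnE, which encodes the mitochondrial glutamate transfer RNA, at mutation loads of 79% (mutant 1) and 76% (mutant 2) by the labels. The mutation load is the share of mitochondrial genomes that carry the change. The comparison group was 2 wild-type C57BL/6J mice (wild type 1 and wild type 2). Kidneys of all 4 had been dissociated with enzymes, sorted for viability and made into droplet 3′ libraries. The sources used here give no age, sex or litter, and the genotype of a library could not be checked from these counts.

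Fatty acid oxidation shortens fatty acids inside mitochondria and peroxisomes and passes the electrons on to the respiratory chain. Fatty acids are joined to coenzyme A, carried into the mitochondrion as carnitine esters, and cut in a spiral of dehydrogenation, hydration, a further dehydrogenation and thiolysis. Ppara is the nuclear receptor that senses fatty acids and, bound to its partner Rxra, switches on many of these genes. Cells of the proximal tubule, which reabsorb most of the filtrate, live mainly on this fuel.

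Ppara and Rxra bind a direct repeat of a receptor hexamer (AGGTCA, any base, AGGTCA), and the promoters were read for it as a description. RefSeq promoters on GRCm38.p6, 250 bases before to 50 after the gene start, were at hand for 24 of the 30 genes. Acaa2, Hsd17b4, Decr1, Cyp4a10, Cyp4a14 and Crat had none at hand and were not read. A gene with several promoters was counted once, by its best match. No promoter of the 24 genes held the repeat with at most 1 of its 12 fixed letters changed on either strand. With at most 2 changed, 3 of the 24 genes (12.5%) held it, against 1190 of all 27025 genes with a promoter at hand (4.40%). These 3 are shown, because they stand nearest to the repeat, with the matched stretch in capitals, read 5′ to 3′ on the gene's strand:
Slc25a20, chr9:108662134-108662162, plus strand: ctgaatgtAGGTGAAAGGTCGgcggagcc
Etfa, chr9:55512300-55512328, minus strand: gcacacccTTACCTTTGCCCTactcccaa
Cd36, chr5:17835939-17835967, minus strand: tggttctcTGGCCTCTGACTTacttggat
In Slc25a20 the stretch begins 6 bases after the start, in Etfa 77 bases and in Cd36 63 bases before it. In the latter pair the repeat lies on the opposite strand. The single hexamer AGGTCA was found in promoters of 4 of the 24 genes (16.7%), against 18.1% of all genes with a promoter at hand. It is shown for Cpt1a and Acadvl, since each of these genes comes back in the results:
Cpt1a, chr19:3323195-3323224, plus strand: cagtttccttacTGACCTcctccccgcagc
Acadvl, chr11:70015498-70015527, minus strand: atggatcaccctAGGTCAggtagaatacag
The other 2 with the hexamer were Acadm and Cd36. Hadha and Hadhb, the subunits of the trifunctional protein, stand head to head on chromosome 5. Their RefSeq starts, of the kind used above, have 272 bases between them, and their GENCODE genes are 85 bases apart. The GENCODE gap is shown whole, since by that annotation both genes are read from it in opposite directions:
Hadha to Hadhb, chr5:30155163-30155247, plus strand: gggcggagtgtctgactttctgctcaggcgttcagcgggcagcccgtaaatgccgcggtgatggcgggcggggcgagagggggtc
A match of letters is no evidence of binding in these cells, and the lack of one in so short a window is none against it.

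The libraries held 42121175 to 70013861 UMIs, and 30428 of 37041 barcodes were kept as cells (5671 to 9535 a library, with medians of 4366 to 6465.5 UMIs). Library pairs shared 14 to 26 barcodes, at most 0.342% of the smaller library. Of 34 clusters, 31 matched a list of markers and fell into 13 classes, and 2707 cells of 3 clusters stayed unnamed. The classes with at least 50 cells in every library were tested: 6 immune classes, the proximal tubule, the distal convoluted and connecting tubule and the thick ascending limb. Wild type 2 stood apart, with 9 endothelial cells and 56 macrophages against 502 to 676 and 820 to 2781 in the other libraries, and the results in tubule cells that move most without it are given both ways. All 4 libraries had Xist in the proximal tubule, at 456 to 2133 CPM (a gene's UMIs scaled to the class total, the usual counts-per-million unit), and Ddx3y, on the Y chromosome, was at 1.09 CPM or less.

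Together the 30 genes took 0.626 to 0.838% of all UMIs in the proximal tubule, 0.349 to 0.493% in the distal convoluted and connecting tubule, 0.365 to 0.407% in the thick ascending limb and 0.377 to 0.488% in intercalated cells. In T cells, B cells, NK cells, macrophages, monocytes and dendritic cells the share was between 0.0884 and 0.136%. The proximal tubule was the highest class for 18 of the 30, by the mean over libraries with at least 50 cells of the class, which the ranges below also use. Intercalated cells, the acid and base transporting cells of the collecting duct, were highest for 8, all of them enzymes of the mitochondrial spiral, its electron carriers or Eci2. These class levels are a description, because the cells were clustered on genes that include some of the 30.

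**Figure D1:**
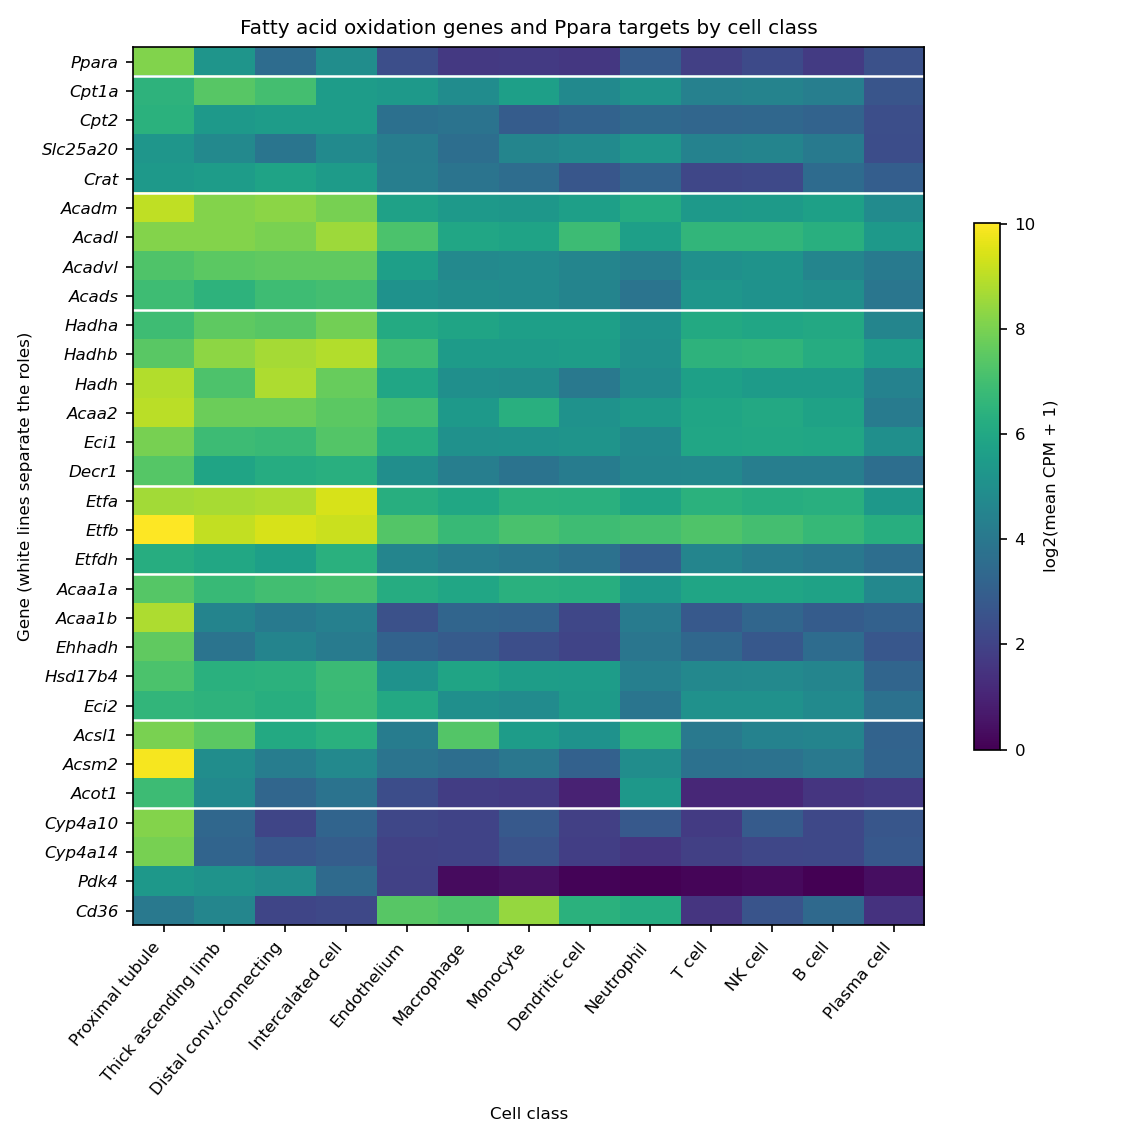
Levels of the 30 genes in 13 cell classes, as log2(mean CPM + 1) over the libraries with at least 20 cells of the class, with rows grouped by role. The tubule classes on the left are brighter than the immune classes for most rows, Ppara, Acaa1b, Ehhadh, Acsm2 and the Cyp4a genes are brightest in the proximal tubule, and Cd36 is brightest in monocytes.

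Ppara itself was at 172 and 118 CPM in the proximal tubule of the mutants and at 212 and 615 CPM in that of the wild types. The thick ascending limb came next, at 11.9 and 9.54 CPM in the mutants and 33.1 and 89.3 CPM in the wild types. Within each library the proximal tubule was above the thick ascending limb, and in the 6 immune classes tested Ppara was at 9.37 CPM or less. A UMI of Ppara was found in 22.9 to 47.8% of proximal tubule cells (median depths of 3688 to 5991 UMIs) and in 0.561 to 4.32% of T cells (3589 to 6883 UMIs).

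The carnitine shuttle carries long-chain fatty acids into the mitochondrion. Its entry enzyme Cpt1a was not highest in the proximal tubule: it was at 125 to 209 CPM in the thick ascending limb and 106 to 155 CPM in the distal convoluted and connecting tubule, against 55.9 to 123 CPM in the proximal tubule. In each of the 4 libraries the thick ascending limb was above the proximal tubule for this gene. Cpt2, which hands the acyl group back to coenzyme A on the inside, was highest in the proximal tubule (50.1 to 105 CPM), though its range there overlapped that of intercalated cells (32.1 to 66.1 CPM). Crat, which trades short acyl groups, was highest in the distal convoluted and connecting tubule (46.0 to 70.7 CPM), within reach of the thick ascending limb (31.0 to 58.8 CPM). Slc25a20, the carrier that exchanges the esters across the inner membrane, was low in all classes, with 32.7 to 41.0 CPM in the proximal tubule.

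The dehydrogenases that open the spiral differ in the chain length they take. Acadm, the medium-chain enzyme, was at 492 to 602 CPM in the proximal tubule and 228 to 380 CPM in the thick ascending limb, without overlap. Acadl, for long chains, was at 363 to 512 CPM in intercalated cells of 3 libraries against 188 to 325 CPM in the proximal tubule. Its means in the proximal tubule and the thick ascending limb were 288.5 and 288.6 CPM. Acadvl, for very long chains, had overlapping ranges in the 4 tubule classes. Acads, for short chains, was at 70.4 to 97.5 CPM in the thick ascending limb, below its 98.0 to 146 CPM in the distal convoluted and connecting tubule. Of the later enzymes, Acaa2, the last thiolase, stood out in the proximal tubule (318 to 687 CPM, against 165 to 264 CPM in the thick ascending limb). Hadhb, which carries the thiolase of the trifunctional protein, had its lowest tubule level there, at 113 to 210 CPM against 269 to 355 CPM in the thick ascending limb. Its head-to-head neighbour Hadha was at 109 to 131 CPM in the proximal tubule and 131 to 256 CPM in the thick ascending limb, so both genes were lower in the proximal tubule than in that class. The electron carriers Etfa and Etfb differed in pattern: Etfa was highest in intercalated cells (600 to 800 CPM against 294 to 444 CPM in the proximal tubule), and Etfb in the proximal tubule (598 to 1328 CPM), with overlap to the distal convoluted and connecting tubule (636 to 770 CPM). Etfdh, which passes their electrons on to ubiquinone, was at 71.3 to 102 CPM in intercalated cells of 3 libraries and 53.2 to 88.8 CPM in the proximal tubule, with overlap.

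Among the peroxisomal enzymes, Acaa1b and Ehhadh were far higher in the proximal tubule than elsewhere, and their relatives were closer to even. Acaa1b, a thiolase, was at 352 to 554 CPM there and at 12.7 to 37.6 CPM in the thick ascending limb. Acaa1a, a gene for a close relative and also on chromosome 9, was at 101 to 211 CPM in the proximal tubule and 83.5 to 130 CPM in the thick ascending limb. The 2 genes are similar in sequence, and it is not known here how reads that fit both were counted. Ehhadh, the bifunctional enzyme, was at 149 to 265 CPM in the proximal tubule and at most 39.7 CPM in any other class, while Hsd17b4, the second bifunctional enzyme, was at 128 to 162 CPM against 68.0 to 99.9 CPM in the thick ascending limb. Acsm2, a medium-chain acyl-CoA synthetase of the kidney, had 824 to 1139 CPM in the proximal tubule and at most 60.3 CPM in any other class. Cyp4a10 and Cyp4a14, the fatty acid hydroxylases used as standard Ppara targets, were at 149 to 337 and 182 to 306 CPM in the proximal tubule and at 24.7 CPM or less in the thick ascending limb. Cyp4a10 and Cyp4a14 also belong to a family of similar genes, which could split or share reads.

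Cd36, a fatty acid transporter, followed another pattern from the rest. It was at 208, 360, 452 and 343 CPM in monocytes (mutant 1, mutant 2, wild type 1, wild type 2) and at 123, 144 and 237 CPM in endothelium of the 3 libraries with more than 9 such cells. In macrophages it was at 93.6 to 273 CPM, and in the proximal tubule at 7.95 to 29.1 CPM. Acsl1, which activates long-chain fatty acids, was shared by the proximal tubule (169 to 304 CPM), thick ascending limb (120 to 223 CPM) and macrophages (86.5 to 308 CPM).

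Free RNA from broken cells gives UMIs in droplets of other cells. Its level was gauged by 6 genes of the proximal tubule (Ass1, Gpx3, Kap, Lrp2, Miox, Slc34a1), summed in each class and set against their sum in the proximal tubule. This ratio was 1.08 to 6.90% in the thick ascending limb and 1.16 to 7.47% in the distal convoluted and connecting tubule. In intercalated cells it was 8.35 to 26.7%, where Gpx3 gave 2809 to 3426 CPM against 26.4 to 114 CPM of Ass1, so it is no gauge there. The 6 genes also differ among themselves. In the thick ascending limb of mutant 1, Kap was at 8.35 CPM against 777 CPM in the proximal tubule, and Ass1 at 160 against 2598 CPM. Multiplied by each gene's level in the proximal tubule, the ratio of the sums gives a rough level that free RNA would leave. In the thick ascending limb, 23 of the 30 genes were more than 3 times above this level in all 4 libraries. The other 7 include Acaa1b, Acsm2, Cyp4a10 and Cyp4a14, which were above 3 times in no library. Acsm2 lay below it in each library of the thick ascending limb, at 27.4, 5.30, 31.6 and 52.9 CPM against 33.7, 9.92, 38.1 and 56.8 CPM. Cyp4a14 lay below in 3 of 4. In the distal convoluted and connecting tubule Ppara was at 0, 3.64, 1.96 and 37.5 CPM against 8.44, 1.37, 4.71 and 46.0 CPM, so that it passed the level in mutant 2 only. Pdk4, which holds back the use of glucose by inhibiting pyruvate dehydrogenase, was well above it in both distal classes, at 41.7, 20.1, 67.7 and 8.23 CPM in the thick ascending limb against 4.20, 0.177, 0.688 and 0.773 CPM. In T cells it was at 0.388 CPM or less.

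**Figure D2:**
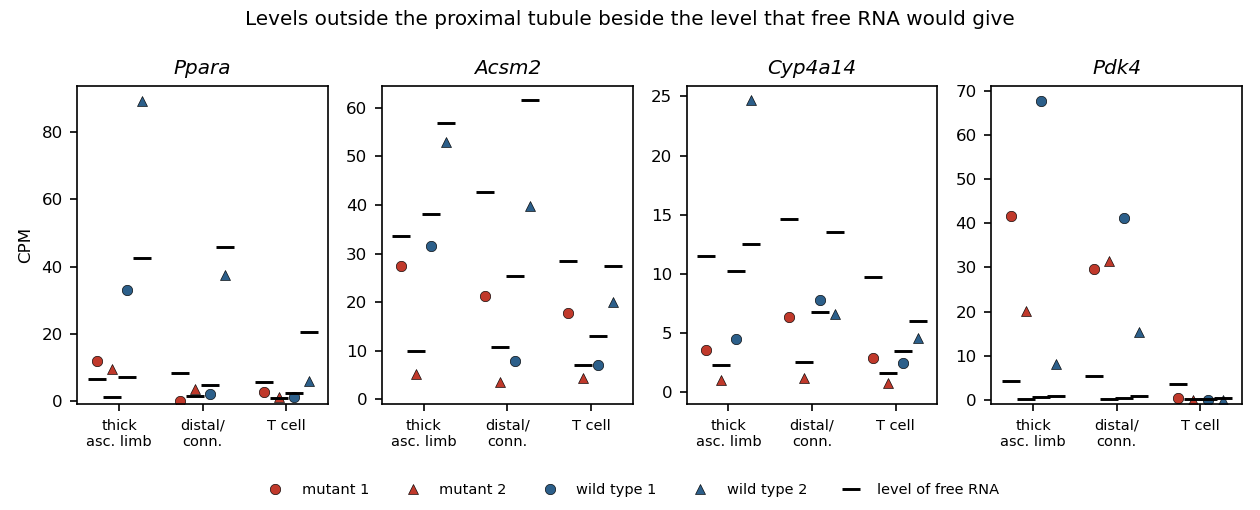
Levels (CPM) of Ppara, Acsm2, Cyp4a14 and Pdk4 in the thick ascending limb, the distal convoluted and connecting tubule and T cells, 1 coloured point per library, with a black dash at the level that free RNA of the proximal tubule would leave in that library. Acsm2 points lie under their dashes in all 3 classes, Pdk4 points lie far above theirs in the 2 tubule classes, and Ppara lies above its dash in the thick ascending limb.

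The proximal tubule was made of 7 clusters of 3 kinds, split on mitochondrial and nuclear RNA after their values were seen. Clusters with a median mitochondrial share above 10% are called mitochondria-rich. Those with more than 100 UMIs of Malat1, a nuclear RNA, in 10000 are called nuclear-RNA-rich, and they had medians of 13420 to 16330 UMIs a cell. The remaining cluster was mitochondria-poor, with a median share of 0.617%. All 3 kinds occurred in all 4 libraries, in different proportions. The nuclear-RNA-rich kind made up 24.7 and 8.03% of proximal tubule cells in the mutants against 20.1 and 32.3% in the wild types. The mitochondria-poor kind made up 36.6, 15.9, 22.2 and 11.6% in the same order. As the cells were clustered on these data, the levels by kind are a description.

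The 30 genes divided over these kinds, in step across libraries. Ppara was at 333, 483, 534 and 976 CPM in the nuclear-RNA-rich cells (mutant 1, mutant 2, wild type 1, wild type 2) and at 30.1, 39.9, 50.7 and 55.6 CPM in the mitochondria-rich cells. It had the largest ratio of the 30, its mean over the 4 libraries being 13.2 times higher in the former. By this ratio of means Pdk4 came next with 9.78 times. There mutant 1 (228 against 13.1 CPM) weighed more than wild type 1 (44.9 against 11.9 CPM). Slc25a20 (3.17), Cpt1a (2.19) and Acsl1 (1.99) followed. For the genes just named and Acsm2, 6 in all, the nuclear-RNA-rich level was above the mitochondria-rich level in 4 of 4 libraries. For 20 genes, among them Cd36, Crat and all 3 genes of electron transfer, it was below in 4 of 4. The same counts were not made over all genes, so the split is not shown to be particular to these 30. Across the 30 genes the Spearman correlation of this ratio with the length of the gene was 0.32, as a description over genes of the same libraries.

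The mitochondria-poor cells were a different case. Cyp4a10 and Cyp4a14 were at 3.85 to 7.74 and 0 to 4.05 CPM there, against 231 to 471 and 238 to 264 CPM in the mitochondria-rich cells. Acot1, a thioesterase and Ppara target, was at 13.8 to 65.2 against 110 to 239 CPM, and Acaa1b at 136 to 250 against 493 to 657 CPM. In all, 8 genes had less than 0.5 times their mitochondria-rich level: these 4, Cpt1a, Ehhadh, Pdk4 and Cd36. Several enzymes of the spiral kept their level or exceeded it. Acaa2 was at 848 to 1283 CPM against 407 to 679 CPM, Hadh, the short-chain hydroxyacyl dehydrogenase, at 780 to 966 against 416 to 572 CPM, and Acads at 187 to 225 against 113 to 161 CPM. For 12 genes the mitochondria-poor level was above the mitochondria-rich level in 4 of 4 libraries, and for 12 it was below in 4 of 4. These CPM are scaled to all UMIs of a kind, mitochondrial ones included, with median shares of 18.5 to 26.6% in the mitochondria-rich clusters. That scaling alone raises nuclear genes in the mitochondria-poor kind, and its part was not tested. Ratios near 1, as for Etfb (1.13), Eci1 (1.17) and Acadvl (1.18), are thus not shown to be higher. Counts over all genes were not made here either.

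**Figure D3:**
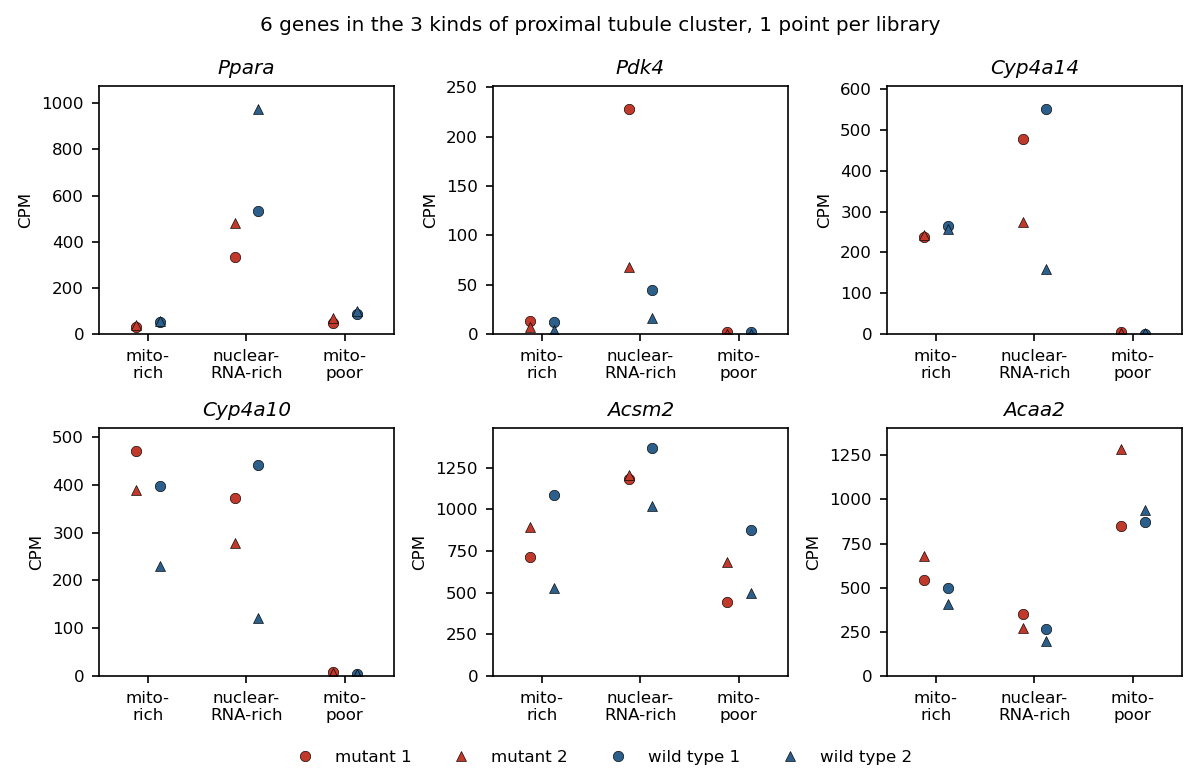
Levels (CPM) of 6 genes in the 3 kinds of proximal tubule cluster, 1 point per library, mutants in red and wild types in blue. Ppara and Pdk4 are highest in the nuclear-RNA-rich kind, Cyp4a10 and Cyp4a14 are near 0 in the mitochondria-poor kind, and Acaa2 is highest in the mitochondria-poor kind.

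Mutant and wild-type libraries were compared on UMIs summed per library and class with the quasi-likelihood test of edgeR, adjusted by Benjamini-Hochberg over all genes of the class at a threshold of 0.05. Levels here are scaled CPM, in which the class totals are corrected by TMM. A positive log2 fold change means higher in the mutants, and n = 2 libraries a group. The median of all genes in the proximal tubule was 0.01 on the log2 scale with TMM and -0.20 with plain totals, a shift of -0.22. The labels name each library a mouse, and whether the mice shared a litter or a day is not stated.

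In the proximal tubule none of the 30 genes passed, by edgeR or by DESeq2, while 112 of 13224 genes tested did (0.847%). Of the 30, 2 had an unadjusted p under 0.05, Ppara and Pdk4, against 9.01% of all genes. The largest differences were in Pdk4 and in Ppara itself. By direction, 25 of the 30 were higher and 5 lower in the mutants, with a median log2 fold change of 0.38 against 0.01 for all genes tested. That tilt came with wild type 2, the lowest of the 4 libraries in 25 of the 30 genes. Without it the median was -0.03 and 14 of 30 were higher. Without wild type 1 the median was 0.99 and 13 genes passed, 12 higher and Ppara lower.

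Ppara had 170 and 139 scaled CPM in the mutants against 225 and 502 in the wild types. Both mutants were below both wild types, and wild type 2 was far above the rest. The log2 fold change was -1.24 (SE 0.52, edgeR adjusted p = 0.450), and without wild type 2 it was -0.55. Within each kind of cluster both mutants were again below both wild types, with log2 fold changes of -0.60 (SE 0.28) in the mitochondria-rich, -0.61 (SE 0.30) in the mitochondria-poor and -0.83 (SE 0.40) in the nuclear-RNA-rich cells, none of which passed (edgeR adjusted p = 1.00, 0.999 and 0.619). Of all genes, 15.9, 16.1 and 19.4% stood below in both mutants in these kinds, 4.75, 4.61 and 8.57% had an unadjusted p under 0.05, and 0.657, 0.419 and 0.0162% passed. The log2 fold change of Ppara without wild type 2 was -0.63, -0.58 and -0.40 in these kinds. Malat1 was at 18438 and 7082 CPM in the mutants and 15184 and 44468 CPM in the wild types. As for Ppara, mutant 2 was lowest and wild type 2 highest, while mutant 1 and wild type 1 stood in the other order. The part of nuclear RNA in the difference was not tested beyond the split by kind.

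Pdk4 had 107 and 19.3 scaled CPM in the mutants against 21.9 and 9.14 in the wild types. Only mutant 1 was high, and mutant 2 lay within the range of the wild types. The log2 fold change was 2.06 (SE 0.60, edgeR adjusted p = 0.150). Without mutant 1 it was 0.33, and without mutant 2 it was 2.81 and passed (edgeR adjusted p = 0.00409). Few cells held the high level. In mutant 1, 7.52% of proximal tubule cells had a UMI of Pdk4, close to the 7.73% of wild type 1. Mutant 1 had 62 cells with 5 or more UMIs. The other libraries had 3 (mutant 2), 5 (wild type 1) and 12 (wild type 2). The top 10 of the 2129 cells of mutant 1 held 35.4% of its 1394 UMIs. The share of the top 10 cells was 68.0% in mutant 2, 25.1% in wild type 1 and 41.4% in wild type 2. Such a share depends on how many cells have a UMI, and these were 160, 41, 123 and 143 (mutant 1, mutant 2, wild type 1, wild type 2). It therefore does not compare the libraries. The most UMIs in 1 cell were 67, 22, 10 and 33 in the same order. By kind, the nuclear-RNA-rich cells were at 228, 68.2, 44.9 and 16.1 CPM, with both mutants above both wild types (log2 fold change 2.44, SE 0.63, edgeR adjusted p = 0.275; 1.77 without wild type 2). Mitochondria-rich cells were at 13.1, 6.98, 11.9 and 4.53 CPM, and there the log2 fold change without wild type 2 was -0.36.

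Both mutants were above both wild types for Decr1, Eci1 and Etfb, and below them for Ppara and Cpt1a. That is 3 and 2 of 30, where 21.0% and 20.3% of all genes did so. Cpt1a had 55.1 and 91.6 scaled CPM in the mutants against 102 and 100 in the wild types (log2 fold change -0.46, SE 0.41). In the mitochondria-poor cells it was at 13.6, 26.6, 33.6 and 45.7 CPM, with a log2 fold change of -1.04 (SE 0.38, unadjusted p = 0.00797, edgeR adjusted p = 0.589). Etfb, the smaller subunit of the electron transfer flavoprotein, had 1310 and 1317 scaled CPM in the mutants against 1175 and 488 in the wild types. For Eci1, an isomerase for unsaturated fatty acids, the values were 315 and 328 against 297 and 107, and for Decr1, the reductase for them, 196 and 203 against 191 and 92.2. In all 3 of these genes wild type 1 lay close to the mutants and wild type 2 far below. Without wild type 2 the log2 fold changes were 0.15 for Etfb, 0.10 for Eci1 and 0.05 for Decr1, and -0.49 for Cpt1a.

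By role, the 4 dehydrogenases, the 6 later enzymes of the spiral, the 3 genes of electron transfer and the 5 peroxisomal genes were all on the higher side in the mutants, with log2 fold changes of 0.09 to 0.75, none past the threshold. Without wild type 2, 3 of 4, 4 of 6, 1 of 3 and 3 of 5 of them were higher, with log2 fold changes of -0.15 to 0.31. Etfdh, for one, had 80.2 and 91.2 scaled CPM in the mutants against 94.5 and 43.4 in the wild types (log2 fold change 0.32, SE 0.43, and -0.15 without wild type 2). Acaa2 (513 and 808 against 527 and 260 scaled CPM) marked the upper end and Acadm (485 and 604 against 535 and 491) the lower. Cyp4a10 had 323 and 379 scaled CPM in the mutants against 359 and 122 in the wild types, and Cyp4a14 had 294 and 256 against 326 and 148. Their log2 fold changes turned without wild type 2 from 0.55 and 0.21 to -0.04 and -0.26. Acsm2 was nearly level, at 860 and 1084 against 1211 and 673 (log2 fold change 0.04, SE 0.58). Within a kind of cluster, 20 of 30 were higher in the mitochondria-rich (median log2 fold change 0.06), 17 of 27 tested in the mitochondria-poor (0.12) and 27 of 30 in the nuclear-RNA-rich cells (0.26). With wild type 2 left out these were 5 of 30, 12 of 27 and 15 of 30, with medians of -0.16, -0.06 and -0.003.

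**Figure D4:**
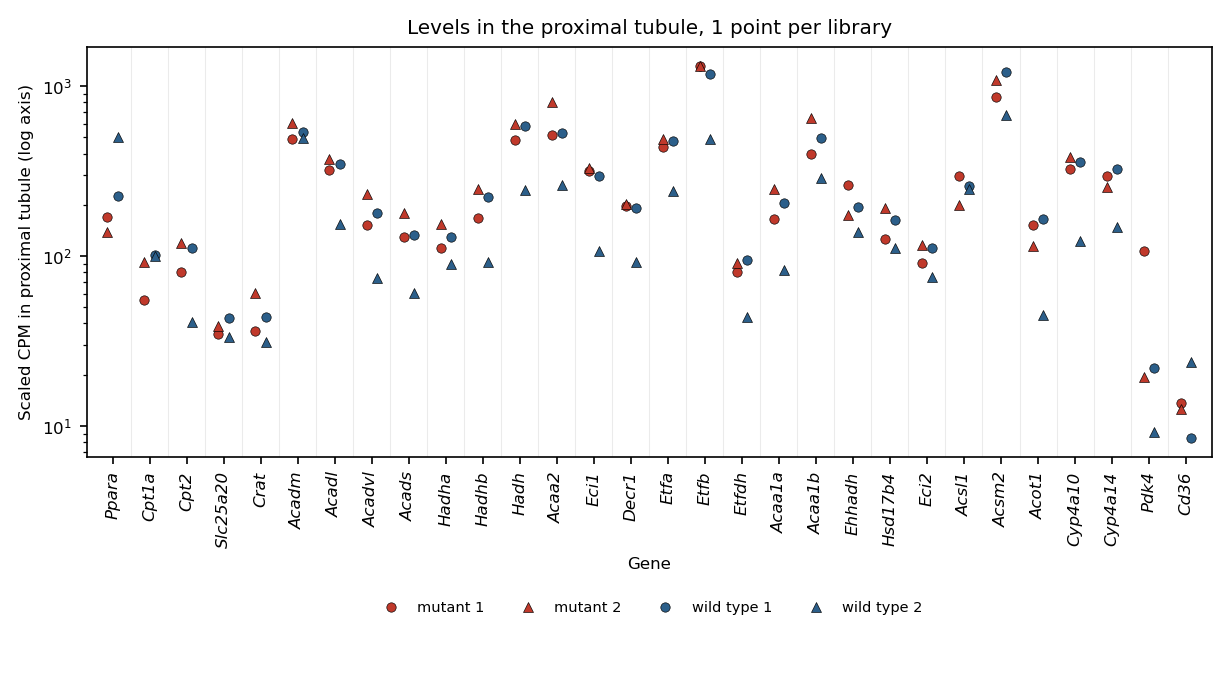
Levels of the 30 genes in the proximal tubule as scaled CPM on a log axis, 1 point per library (mutants red, wild types blue). Wild type 2 is the lowest point for 25 of the 30 genes and the highest for Ppara, and the mutant 1 point of Pdk4 lies far above the other 3.

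In the thick ascending limb, which reclaims salt and rests on 97 to 149 cells a library, none of the 29 genes tested passed by edgeR or by DESeq2, and 21 of 8429 genes did (0.249%). Of the 29, 3 had an unadjusted p under 0.05, against 18.2% of all genes: Ppara, Cyp4a10 and Acsm2, all lower in the mutants. There were 12 genes higher and 17 lower, with a median log2 fold change of -0.06 against -0.01 for all genes. Both mutants were above both wild types in 7 of the 29 and below in 7, where 24.7% and 26.5% of all genes were. No single library was the lowest for most genes here.

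Ppara was nearest to the threshold, with 12.5 and 10.6 scaled CPM in the mutants against 34.1 and 82.6 in the wild types. The groups did not overlap, and the log2 fold change was -2.36 (SE 0.46, edgeR adjusted p = 0.0753). It passed with no filter on low counts (adjusted p = 1.16e-07), with a replicate block (adjusted p = 0.0250), at a mitochondrial limit of 25% (adjusted p = 0.0131) and without wild type 1 (adjusted p = 8.82e-11), and in no other of its alternatives, over which edgeR and DESeq2 gave adjusted p up to 0.375. Without wild type 2 the log2 fold change was -1.54. By the rough gauge of 6 genes, free RNA of the proximal tubule would leave 6.65 and 1.27 CPM in the mutants. In the wild types it would leave 7.08 and 42.4 CPM, so its level was also uneven between the groups. Observed levels were 11.9, 9.54, 33.1 and 89.3 CPM. In cells, 5.31 and 5.37% of the mutant and 12.3 and 25.8% of the wild-type cells had a UMI, at median depths of 4369, 4813, 3637.5 and 6802 UMIs. Thinned to 1000 UMIs a cell the shares were 2.02, 0, 1.00 and 4.71%, too few cells to order. Malat1 in this class was at 18628 and 10649 CPM in the mutants and 20876 and 29610 CPM in the wild types, the same order of libraries as Ppara, and its part was not tested.

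Acsm2 (28.8 and 5.90 against 32.5 and 48.9 scaled CPM, log2 fold change -1.27, SE 0.53, edgeR adjusted p = 0.244) and Cyp4a10 (2.51 and 7.08 against 12.4 and 15.2, log2 fold change -1.50, SE 0.61, edgeR adjusted p = 0.238) stood in no library above 3 times the level that free RNA of the proximal tubule would leave. The sum of the gauge genes in the thick ascending limb was 1097 and 447 CPM in the mutants and 1192 and 1634 CPM in the wild types. Enzymes that these cells express on their own showed small differences. Acadvl, the very long chain dehydrogenase, had 197 and 234 against 189 and 120 scaled CPM, and Acaa1a had 117 and 145 against 108 and 77.2. Etfb had 660 and 649 against 530 and 445, and all 3 genes of electron transfer were on the higher side, with log2 fold changes of 0.23 to 0.43 (0.01 to 0.31 without wild type 2). Acsl1 (178 and 133 against 218 and 207) and Crat (32.6 and 40.1 against 55.8 and 54.4, log2 fold change -0.59, SE 0.27) were on the lower side without overlap. None of these passed (edgeR adjusted p of 0.274 to 0.334). Without wild type 1, 6 genes passed: Pdk4, Acot1 and Acadvl higher and Ppara, Acsm2 and Cyp4a14 lower. Pdk4 had a log2 fold change of -0.11 (SE 0.70) with all libraries and of -1.07 without wild type 2 (edgeR adjusted p = 0.0623).

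**Figure D5:**
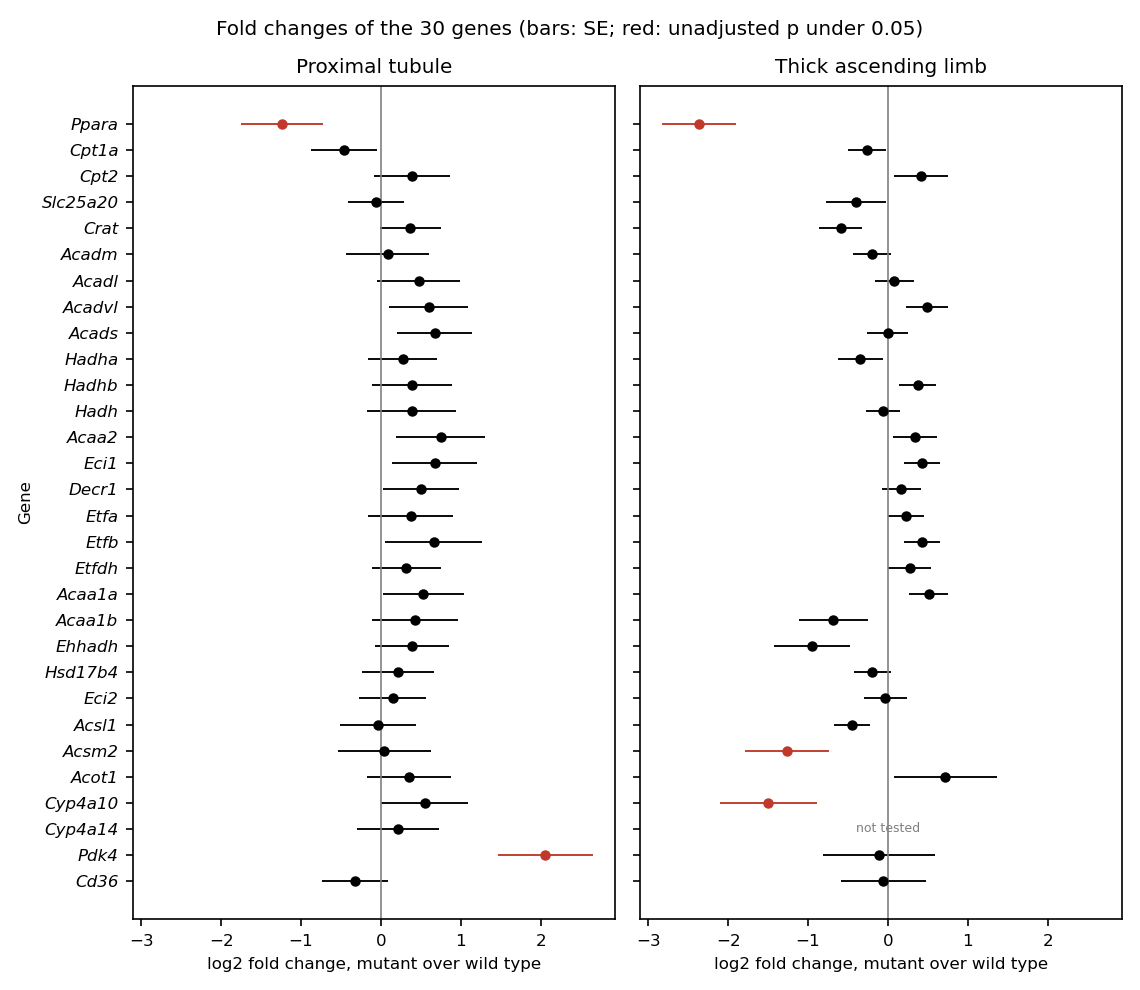
Log2 fold changes, mutant over wild type, of the 30 genes in the proximal tubule and of 29 in the thick ascending limb, with the standard error as bars and genes of unadjusted p under 0.05 in red. Ppara lies to the left in both classes, Pdk4 to the right in the proximal tubule only, and most enzymes lie a little to the right of 0 in the proximal tubule and around 0 in the thick ascending limb. None passed after adjustment.

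The distal convoluted and connecting tubule (95 to 148 cells a library) gave 0 of 5271 genes past the threshold by edgeR (0.0%) and 4 by DESeq2. None of the 23 genes tested here passed by either, and 0 of the 23 had an unadjusted p under 0.05, against 4.27% of all genes. There were 7 higher and 16 lower, with a median log2 fold change of -0.02. With plain totals 1 of 23 was higher, where the median of all genes was -0.18. Without mutant 1 the count was 16 of 26 tested, and without wild type 1 it was 15 of 25. The 3 genes of electron transfer were a little lower in the mutants here, with log2 fold changes of -0.06 to -0.004, none past the threshold. Acadm differed most in p, with 196 and 293 scaled CPM in the mutants against 308 and 484 in the wild types (log2 fold change -0.69, SE 0.32, unadjusted p = 0.0645, edgeR adjusted p = 0.985). Its log2 fold change was -0.32 without wild type 2.

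In the 6 immune classes 0 of 156 tests of these genes passed by edgeR or DESeq2 and 10 had an unadjusted p under 0.05. All genes past the threshold there numbered 2 in macrophages (0.016%), 5 in monocytes (0.0545%) and 0 in the others (0.0%). The shares of all genes with an unadjusted p under 0.05 were 3.76% in B cells, 4.32% in dendritic cells, 5.15% in macrophages, 3.18% in monocytes, 4.67% in NK cells and 3.61% in T cells. In T cells both mutants were above both wild types in 13 of the 28 genes tested and below in 0, where 20.1% and 19.4% of all genes were, and the median log2 fold change was 0.28 with 19 of 28 higher. With 1 library left out the T cell median ran from 0.12 (without mutant 1) to 0.40 (without mutant 2). Without wild type 2 it was 0.35, with 24 of 29 tested higher. With plain totals it was 0.04 with 14 of 28 higher, where the median of all genes was -0.19. The other immune classes also had more genes higher than lower. Their medians were 0.37 in monocytes, 0.23 in B cells, 0.18 in macrophages, 0.17 in NK cells and 0.09 in dendritic cells. With plain totals these were 0.18, -0.02, -0.13, 0.04 and -0.22, where the medians of all genes were -0.16, -0.26, -0.28, -0.13 and -0.31. Etfb was higher at an unadjusted p under 0.05 in B cells, macrophages and monocytes. In monocytes it had 275 and 125.5 scaled CPM in the mutants against 117 and 73.2 in the wild types (log2 fold change 1.03, SE 0.42, edgeR adjusted p = 0.862), with mutant 1 high, and it passed without mutant 2, as did Eci1. In macrophages Etfb passed with a replicate block and without wild type 1. Acaa1b passed there as lower without wild type 1 (log2 fold change -1.97), and its level in macrophages was above 3 times the level that free RNA would leave in no library. Acsl1 was lower in NK cells, at 5.83 and 7.90 against 19.9 and 47.0 scaled CPM (log2 fold change -2.08, SE 0.56, edgeR adjusted p = 0.804).

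Whether the mutant effect differed between the proximal tubule and the thick ascending limb was tested directly, with the library as a block. Of 12887 genes 64 passed (0.497%) and of the 30 none, with 5 at an unadjusted p under 0.05, against 5.49% of all genes. The smallest p belonged to Pdk4 (difference in log2 fold change, proximal tubule minus thick ascending limb, 1.65, SE 0.50, edgeR adjusted p = 0.130), Cyp4a14 (2.90, SE 0.89, edgeR adjusted p = 0.137) and Cyp4a10 (2.29, SE 0.80, edgeR adjusted p = 0.284). Cyp4a14 and Cyp4a10 passed without wild type 1. In no library of the thick ascending limb was either above 3 times the level that free RNA would leave.

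A list of 98 other genes of the pathway gave none past the threshold in any class tested. In the proximal tubule 50 of its 90 tested genes were higher and 40 lower, with a median log2 fold change of 0.06 and 3 at an unadjusted p under 0.05. The smallest p belonged to Fabp1, a fatty acid binding protein, with 130 and 146 scaled CPM in the mutants against 82.0 and 37.7 in the wild types (log2 fold change 1.21, SE 0.45, edgeR adjusted p = 0.332; 0.74 without wild type 2). Ppargc1b, a coactivator of Ppara and its relatives, came next, with 26.8 and 23.3 against 40.3 and 53.9 (log2 fold change -0.91, SE 0.36, edgeR adjusted p = 0.379), then Cyp4a32 at 3.63 scaled CPM or less and Ucp2, an uncoupling protein, with 67.7 and 84.4 against 58.8 and 16.2 (log2 fold change 1.03, and 0.36 without wild type 2). Without that library 32 of the 90 were higher and 58 lower, with a median of -0.15. In the thick ascending limb 36 of 66 were higher and 30 lower, and 9 had an unadjusted p under 0.05. Ppargc1a, the coactivator that drives mitochondrial biogenesis, had 280 and 218 scaled CPM in the mutants against 418 and 544 in the wild types (log2 fold change -0.95, SE 0.24, edgeR adjusted p = 0.130). Lipe, a lipase for stored fat, had 2.51 and 4.72 against 20.1 and 15.2 (log2 fold change -2.21, SE 0.59, edgeR adjusted p = 0.135). The fatty acid transporter Slc27a2 and the carnitine transporter Slc22a5, both strong in the proximal tubule, had log2 fold changes of -1.91 (SE 0.40) and -1.75 (SE 0.38) with edgeR adjusted p of 0.0944 and 0.102. For Slc27a2 the observed levels in the thick ascending limb were 23.9, 20.1, 49.7 and 134 CPM, and free RNA would leave 33.2, 12.7, 45.7 and 129 CPM. For Slc22a5 they were 11.9, 8.48, 37.6 and 38.8 CPM, above the 4.18, 1.13, 4.39 and 16.0 CPM that free RNA would leave. Once wild type 2 was left out, Slc22a5 passed as lower (edgeR adjusted p = 0.0344) and Fabp4, a fatty acid binding protein named after its value was seen, as higher.

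Other lists moved with the groups in the same sums. Of 16 immediate early genes, which respond within minutes to stress and handling, all 16 were higher in the mutants in the proximal tubule and Klf4, Jun, Fos and Egr1 passed. Their summed level was 1247 and 458 CPM in the mutants and 283 and 400 CPM in the wild types. Of 10 tested genes of tubular injury all 10 were higher and Vim, Vcam1 and Clu passed, with sums of 3155 and 4624 against 1951 and 1394 CPM over the 12 genes of the list. Without wild type 2, 16 of 16 and 9 of 10 of these were higher and none passed. Markers of macrophages in the proximal tubule summed to 1765 and 1579 against 1028 and 523 CPM over 11 genes. In the thick ascending limb all 12 immediate early genes tested were higher, of which Ier3 passed, with sums of 2317 and 807 against 504 and 615 CPM. All 7 injury genes tested there were higher and none passed, with sums of 9435 and 7772 against 4246 and 2178 CPM. Without wild type 2, 11 of 16 immediate early genes tested and 1 of 8 injury genes passed as higher. The mitochondrial share of UMIs in the proximal tubule was 8.33 and 17.6% in the mutants against 13.5 and 11.6% in the wild types. The part of these in the results above was not tested, and fewer cells of a kind cannot be told apart from less RNA per cell within a class sum.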

How the data were processed

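UMI counts of 2 mutant and 2 wild-type libraries were used as deposited by the authors, whole numbers per gene and cell barcode from Cell Ranger 7.0.0 (mutants) and 7.1.0 (wild types) on mm10, per the file headers. The version and the group cannot be told apart, and the treatment of reads that fit several genes is not given in the sources used here. Cells needed 200 genes and 500 UMIs, with mitochondrial UMIs no more than 50%, calls of scrublet were removed, and cells of all libraries were clustered together with scanpy 1.11.5 (2000 variable genes, 30 principal components, 15 neighbours, leidenalg 0.10.2 at resolution 1). The limit on mitochondrial UMIs removed 11.2 to 24.1% of barcodes and doublet calls removed 97 to 239 a library. Clusters were named from lists of markers, with at least 3 detected. Clustering without the pathway's genes put 96.4% of proximal tubule cells in the same class.

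UMIs were summed per library and class where each library had at least 50 cells, and tested with edgeR 4.0.16 in R 4.3.3 (filterByExpr, TMM, glmQLFTest), with Benjamini-Hochberg adjustment over all genes of the class. An exact permutation test of 2 against 2 libraries cannot go below p = 0.333. DESeq2 1.42.0, other scalings, filters on genes and cells, a replicate block and leaving out each library were alternatives. The 30 genes and all lists were chosen with earlier results of these data known. All 30 are named, and of the 98 other genes of the pathway the 4 with the smallest p in the proximal tubule and in the thick ascending limb. The kinds of proximal tubule cluster, with their limits of 10% and 100 in 10000, the fits of each kind without wild type 2 and the crossed block were chosen after seeing the data.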

Additional observations from a re-analysis of the deposited data

How the results depend on the processing

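Of 13 single genes followed, Pdk4 in the proximal tubule changed sign once (-0.36 in mitochondria-rich clusters without wild type 2), and the median there was -0.16. The side with more genes turned in the counts: without wild type 2, 14 of 30 were higher in the proximal tubule, and without wild type 1, 17 of 30 in the thick ascending limb. Of the 30 genes in the proximal tubule, 1 passed with no filter on low counts (Pdk4), and between 0 and 13 passed when 1 library was left out, with medians of the log2 fold change from -0.026 (without wild type 2) to 0.99 (without wild type 1). In the thick ascending limb 2 passed with no filter, 1 with the replicate block, 1 at a mitochondrial limit of 25%, and between 0 and 6 with 1 library left out (6 without wild type 1), with medians from -0.13 to 0.10. In the distal convoluted and connecting tubule the median was -0.19 with plain totals, where that of all genes was -0.18. It was between -0.27 and 0.10 with 1 library left out. In the immune classes 1 passed with the replicate block and between 0 and 2 with 1 library left out. For the difference between proximal tubule and thick ascending limb, between 0 and 2 passed with 1 library left out. Where 1 library is left out, its group has 1 sample, assumed to vary like the others. The causes were not tested.

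Calls over all genes in the proximal tubule were 112, but 217 with the replicate block, 410 with no filter, 1752 without wild type 1, 1 with doublet calls kept and 0 with plain totals or without wild type 2. In the thick ascending limb they ran from 4 to 856 around 21, and in the distal convoluted and connecting tubule from 0 to 359 around 0. The replicate numbers were not shown to pair mice: same-numbered deviations correlated at -0.18 in the proximal tubule, -0.16 in the distal convoluted and connecting tubule and 0.01 in the thick ascending limb, and at 0.24, 0.23, 0.22, 0.15, 0.10 and 0.08 in B cells, monocytes, T cells, dendritic cells, NK cells and macrophages. The crossed block gave 144 genes in the proximal tubule and 1 in the distal convoluted and connecting tubule, with 0 of the 30 in both. Leaving out the shallowest cluster was not possible in the thick ascending limb and the distal convoluted and connecting tubule, which are 1 cluster each. The distal classes rest on 95 to 149 cells a library.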
